A study of Mus musculus with 4 samples.

Results

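Pi16/Dpp4-positive stromal progenitors of mouse subcutaneous adipose tissue (SAT) were 132 of 4738 SAT cells, and of 8986 cells in the whole series. Of these 132 cells, 100 came from the control library and 32 from the library of animals given D-CAN. Members were chosen by measured values: a cell was taken if it held at least 1 unique molecular identifier (UMI, a tag that counts each captured transcript once) of decorin (Dcn), at least 1 of Pi16 or Dpp4, at least 1 of the collagens Col1a1, Col1a2 or Col3a1, and none of the endothelial genes Pecam1 and Cdh5 or of the leukocyte genes Ptprc, Cd79a and Cd3e. Cells with at least 2 UMIs of Dcn that met the collagen and exclusion conditions but held neither Pi16 nor Dpp4, 83 in the control and 37 in the D-CAN library, served as comparison cells. The study set stromal/vascular cells of SAT from D-CAN-treated mice beside those of control mice, and did the same for subcutaneous MycCaP tumors, whose libraries held cancer cells as well. The genotype of all 4 libraries is given as VFB, and the methods describe chow-fed FVB mice that carried a subcutaneous graft of MycCaP, a cell line from prostate tumors of HiMyc mice. Controls received PBS. D-CAN, given subcutaneously, joins a cyclic peptide that homes to adipose stromal cells (ASC) to an amphipathic sequence, and was used to deplete ASC. There was 1 library per tissue and treatment, so no test between treatments was possible. The intervals below are 95% intervals that cover counting error only, and any difference between the treatments cannot be told apart from a difference between the animals or between the libraries. How many mice a library held, and their age, is not given in the sources used here.

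Stromal cells of white fat include interstitial progenitors that carry the peptidase DPP4 and the secreted protein PI16 and lie in the connective tissue around the fat lobules. They are known to give rise to committed preadipocytes, marked by ICAM1, and to CD142-positive cells, marked by tissue factor (F3), which has been described as a regulator of adipogenesis. Decorin is a small leucine-rich proteoglycan that binds collagen fibrils, and a form of it without its sugar chain has been described as the receptor of the homing peptide in D-CAN. Dcn, one of the genes that chose the cells, is thus also the gene of the described target.

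The libraries differed in depth, and the members differed more. A control member held 509 to 14070 UMIs with a median of 1000, whereas a D-CAN member held 1049 to 17009 with a median of 7441.5. Thus 74 of 100 control members and 3 of 32 D-CAN members lay under 2000 UMIs. The comparison cells had medians of 1010 and 3852 UMIs, and all SAT cells with 200 or more genes had medians of 1707 and 2950. Because the D-CAN members were fewer and deeper, the summed counts of members were nearly equal, at 226745 UMIs in the control and 226136 in the D-CAN library. The share of mitochondrial transcripts differed little, with a median of 3.50% in control and 3.63% in D-CAN members. The 2 SAT libraries shared 2 cell barcodes, neither of them in a member. The D-CAN SAT file was written by Cell Ranger 3.0.2 and the control file by 3.1.0, so software version and treatment cannot be told apart.

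**Figure D1:**
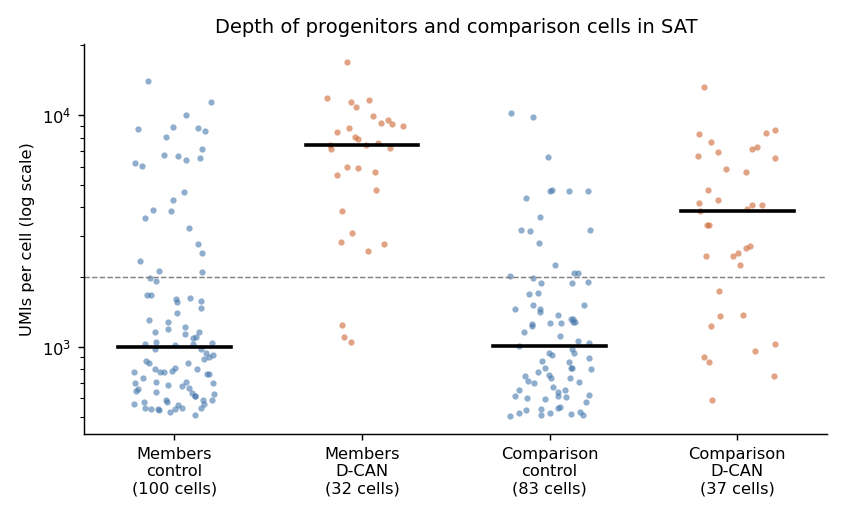
UMIs per cell (log axis) for each member and comparison cell of the control and D-CAN SAT libraries, with the median as a black bar and 2000 UMIs as a dashed line. The control members gather between 509 and 2000 UMIs, where 74 of 100 lie, and only 3 of 32 D-CAN members lie below the line.

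The label was checked against Igfbp6, an IGF-binding protein that marks these progenitors and that the rule did not use. Igfbp6 was found in 86 of 100 control and 31 of 32 D-CAN members. Its level was 2567 and 3091 counts per 1000000 UMIs of the summed cells (CPM). In comparison cells it stood at 906 and 831 CPM, so that it was higher in members by 1.50 (1.22 to 1.79) on the log2 scale in control and by 1.89 (1.62 to 2.18) in D-CAN. By the rule itself, 63 control members held Pi16 alone, 31 held both genes and 6 held Dpp4 alone, against 10, 20 and 2 in the D-CAN library. Pi16 was at 3383 and 3401 CPM and Dpp4 at 357 and 455 CPM. Among the members with 2000 UMIs or more the composition was close, with both genes in 18 of 26 control and 20 of 29 D-CAN cells, and under 2000 UMIs both were seen in 13 of 74 control cells. Members at the edge of the rule held a single Pi16 or Dpp4 UMI in 32 control and 7 D-CAN cells. Just outside it, 36 control cells met the stromal conditions but held an endothelial or leukocyte UMI, 22 of them exactly 1, against 3 D-CAN cells.

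RNA of these genes also appeared in cells that should lack it. Among Ptprc-positive cells, Dcn was found in 4.38% of the control and 1.56% of the D-CAN cells and Pi16 in 2.19% and 1.07%, at median depths of 2257 and 3051 UMIs. Dpp4 was found in 6.67% and 6.63% of them. T cells are known to carry Dpp4 as CD26. In endothelial cells, taken with or without Dcn, Dcn was found in 6.99% of the control and 7.19% of the D-CAN cells. Pi16 was found in 2.43% and 2.61% of these endothelial cells, at median depths of 1927 and 4496 UMIs. Markers of other cell types that were seen in members are given by list, and the epithelial gene Cldn3, seen in 16 of 32 D-CAN members, is described further on. The 7 general leukocyte genes summed to 55 UMIs in control and 4 in D-CAN members, with Ptprc at 0 by the rule and Cd52 the most abundant. The B cell list summed to 38 and 3 UMIs, led by Igkc, and the T cell list to 39 and 1, led by Trbc2. Of the 55 control leukocyte UMIs, 54 lay in members under 2000 UMIs. The endothelial list summed to 12 and 1 UMIs, the mural list to 11 and 10 and the Schwann list to 9 and 7. The mesothelial list summed to 3 and 8 UMIs, led by the keratin Krt19 with 3 UMIs in 2 control members and 7 in 3 D-CAN members, and 6 of its 8 genes were at 0. The macrophage, red cell and skeletal muscle lists summed to at most 4 UMIs each, and Adipoq and Plin1, which define adipocytes, were at 0 in both libraries.

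Clustering of all SAT cells, with the genes of the rule kept out of the variable genes, placed most members in 3 of 19 clusters. Igfbp6, Fn1, F3 and Cxcl12 were kept out as well. Cluster 16, with 42 cells and a median of 7762.5 UMIs, held 38 members, 18 control and 20 D-CAN, and no comparison cell. Of all genes, it was led by Pi16, Mfap5, Sbsn, Igfbp6, Dmkn and Pcolce2. A further 69 members, 65 of them control, fell in cluster 10, which had a median of 747 UMIs and had Cxcl13, Mal and Pmp22 among its leading genes. Library and cluster went together here, since 20 of the 38 members in cluster 16 and 4 of the 69 in cluster 10 were D-CAN cells, so levels were read in the control library alone, in 65 members of cluster 10 beside 18 of cluster 16. There Anxa3 was at 1860 beside 1507 CPM, Fn1 at 4127 beside 4199, Igfbp6 at 2317 beside 3190 and Sbsn at 506 beside 697. Cldn3 had 2 and 15 UMIs and Cxcl13 3 and 18, and Pi16, a gene of the rule, was at 3491 beside 4240 CPM. Another 19 members fell in cluster 13 with 73 of the 120 comparison cells. Of these 19, 13 held a single Pi16 or Dpp4 UMI, and Pi16 was at 292, Anxa3 at 75.7, F3 at 1633 and Apoe at 3742 CPM. The members thus held 38 deep cells, 69 mostly shallow cells that were nearly all of the control library, and a small group placed with cells that carry F3, Apoe and Cxcl14. At a resolution of 0.4 in place of 0.8, 126 of the 132 members fell in 1 cluster, together with 98 comparison cells.

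The first question was whether progenitors were scarcer after D-CAN. Of all SAT cells, members made up 3.52% in control (2.87 to 4.26) and 1.69% in D-CAN (1.16 to 2.37), a difference of -1.83 percentage points (-2.75 to -0.890) and a ratio of 0.479 (0.311 to 0.720). With every cell thinned at random to 500 UMIs and the rule applied again, the shares were 3.17% and 1.16%, with a ratio of 0.366 (0.219 to 0.589). Comparison cells made up 2.92% and 1.95%, with a ratio of 0.668, and 3.31% and 2.16% after thinning, with a ratio of 0.653.

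The difference was widest among shallow cells. Under 2000 UMIs, 74 of 1666 cells were members in control (4.44%, 3.50 to 5.54) and 3 of 411 in D-CAN (0.730%, 0.151 to 2.12). With 2000 UMIs or more, 26 of 1175 were members in control (2.21%, 1.45 to 3.23) and 29 of 1486 in D-CAN (1.95%, 1.31 to 2.79), with a ratio of 0.882 (0.501 to 1.56). From 500 to under 1000 UMIs, 50 of 913 cells in control and 0 of 196 in D-CAN were members, where a count of 0 allows a share of up to 1.53% by the floor of 3 cells and up to 1.86% by the exact interval. From 2000 to under 4000 UMIs, 9 of 791 cells in control (1.14%, 0.522 to 2.15) and 5 of 911 in D-CAN (0.549%, 0.178 to 1.28) were members. At 8000 UMIs or more the shares were 8.60% and 8.07%. By cluster, cluster 10 held 172 of 2841 control cells (6.05%, 5.21 to 6.99) and 22 of 1897 D-CAN cells (1.16%, 0.728 to 1.75), at median depths of 704.5 and 2142 UMIs. Cluster 16 held 21 cells of each library, 0.739% (0.458 to 1.13) in control and 1.11% (0.687 to 1.69) in D-CAN, and cluster 13 held 2.39% and 2.32%.

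**Figure D2:**
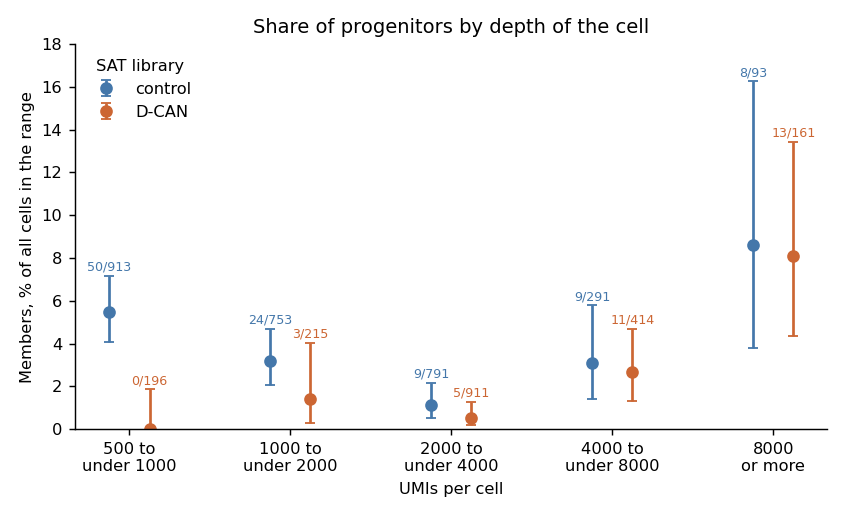
Members as a percent of all SAT cells within ranges of UMIs per cell, with exact 95% intervals (bars) and the counts above them. The control library (blue) is higher below 2000 UMIs, at 50 of 913 and 24 of 753 cells, and the 2 libraries lie close above 4000 UMIs.

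The share also depended on what it was taken of. Among cells without UMIs of Ptprc, Cd79a and Cd3e, members were 100 of 1192 control (8.39%, 6.88 to 10.1) and 32 of 413 D-CAN cells (7.75%, 5.36 to 10.8), a difference of -0.641 percentage points (-3.58 to 2.73). Among cells that met the Dcn, collagen and exclusion conditions, 49.5% (42.4 to 56.6) of 202 control and 46.4% (34.3 to 58.8) of 69 D-CAN cells held Pi16 or Dpp4. Within the stroma chosen in this way the difference had an interval of -17.2 to 11.2 percentage points. These shares set shallow control cells beside deeper D-CAN cells, so the same fractions were taken again with every cell thinned to 500 UMIs. Among the cells that then met the stromal conditions, 90 of 206 control cells (43.7%, 36.8 to 50.8) and 22 of 67 D-CAN cells (32.8%, 21.8 to 45.4) were members, a difference of -10.9 percentage points (-23.9 to 3.47). At 1000 UMIs they were 52 of 108 (48.1%) and 26 of 63 (41.3%). Among the thinned cells without a UMI of the 3 leukocyte genes, which then include leukocytes whose UMIs of these genes were lost, members were 90 of 1904 (4.73%) and 22 of 1065 (2.07%), with a ratio of 0.437 (0.261 to 0.703). Whether Pi16/Dpp4-positive cells were scarcer than other Dcn-positive cells could thus not be told at this depth. For cells with Dpp4, whether or not they held Pi16, the shares of all cells were 1.30% in control and 1.16% in D-CAN, but Dpp4 was seen in 20 of 26 control members with 2000 UMIs or more and in 17 of the 74 below. Thinned to 500 UMIs, the cells taken by Dpp4 alone were 18 of 2841 (0.634%, 0.376 to 0.999) and 5 of 1897 (0.264%, 0.0856 to 0.614).

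What set the members apart from the other Dcn-positive cells was then read inside each library, where treatment is shared. Depth was not fully shared. In the control library the medians were 1000 UMIs in members and 1010 in comparison cells, but 26 of 100 members and 17 of 83 comparison cells held 2000 UMIs or more, and in the D-CAN library the medians were 7441.5 and 3852. Summed counts weight the deep cells most. Of 828 genes with at least 50 UMIs in each library, 63 (7.61%) were at least 2-fold higher in members in both libraries and 25 (3.02%) at least 2-fold lower. Since the rule chose the cells, these values are a description of 2 libraries. The list of interstitial progenitor genes went with the members: of 17 genes measured at 20 UMIs or more, all 17 lay above 0 in both libraries and 11 were at least 2-fold higher, where 5.45% of all 2203 genes were. Its median log2 ratio was 1.30 in control and 3.38 in D-CAN, beside 0.0225 and 0.0746 over all genes.

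Among these genes, Anxa3, which codes for a calcium-dependent phospholipid-binding annexin, held 309 UMIs in control members and 277 in D-CAN members, against 20 and 2 in comparison cells. Its log2 ratio was 3.20 (2.58 to 3.96) in control and 6.24 (4.69 to 9.61) in D-CAN. Sema3c, a secreted semaphorin, held 184 and 147 UMIs in members and 38 and 1 in comparison cells. Wnt2, a WNT ligand, held 27 and 20 UMIs in members and 6 and 0 in comparison cells. Fibronectin (Fn1) stood at 3647 and 2804 CPM in members and at 1479 and 136 CPM in comparison cells. The ratio was larger in the D-CAN library for each of these 4 genes. The comparison cells were not alike in the 2 libraries: 21 of the 83 control ones, and none of the 37 D-CAN ones, lay in cluster 18, which held control cells only and was led by Nov, Cthrc1 and Sfrp2, and the part of this in the contrast was not tested.

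Endothelin-1 (Edn1), a vasoconstrictor peptide, held 101 UMIs in 27 control members and 94 in 19 D-CAN members and none in comparison cells, which makes it at least 20.5-fold and 21.4-fold higher against a floor of 3 UMIs per cell group. Endothelial cells (at least 2 UMIs of Pecam1 and Cdh5 and none of Ptprc or Dcn), a known source of endothelin-1, held it at 217 and 169 CPM, below the 445 and 416 CPM of the members. Smpd3, a neutral sphingomyelinase, held 85 and 86 UMIs in members against 2 and 0 in comparison cells. Thrombomodulin (Thbd), a cofactor of thrombin, held 67 and 76 UMIs against 4 and 5. The retinaldehyde dehydrogenase Aldh1a3 held 49 UMIs in the members of both libraries against 3 and 2. Efhd1 (73 and 64 UMIs), the glutaminyl cyclase Qpct (83 and 134), Fndc1 (219 and 188), the procollagen processing enhancer Pcolce2 (252 and 357) and the secreted WNT antagonist Sfrp4 (149 and 76) completed the 12 genes farthest above the comparison cells, with log2 ratios of 2.55 to 2.78 in control.

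**Figure D3:**
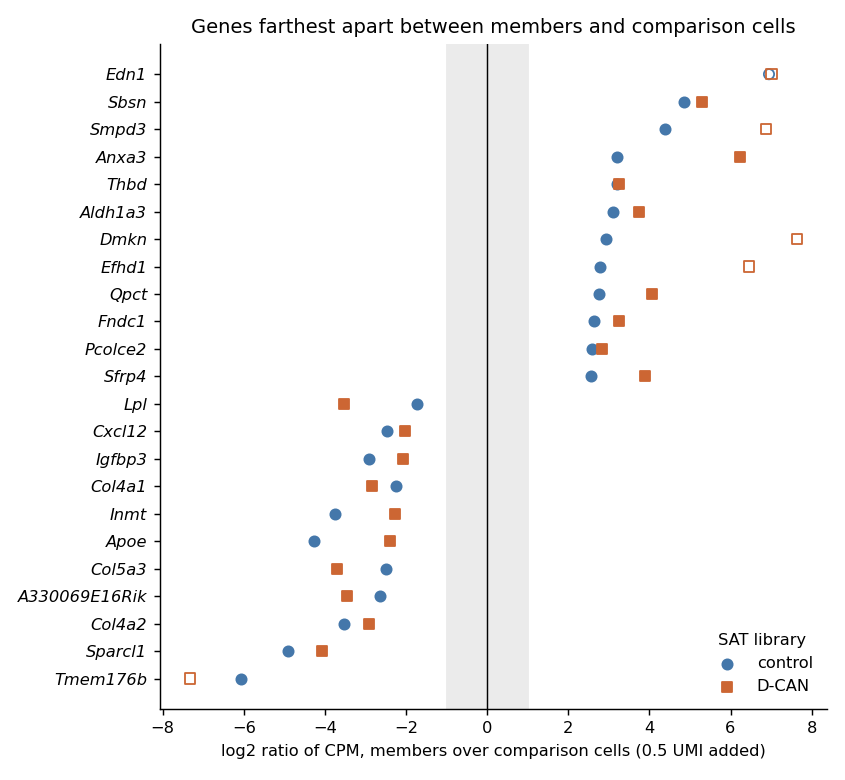
Log2 ratio of CPM in members over comparison cells for the 12 genes farthest above and 11 of those farthest below in both SAT libraries, as circles for control and squares for D-CAN. Open symbols mark ratios with no UMI in 1 of the cell groups, whose size depends on the 0.5 UMI added, and the grey band spans 2-fold either way, which every symbol lies outside.

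Suprabasin (Sbsn) and dermokine (Dmkn) stood among these 12 genes and are neighbours in the genome, together with Krtdap, which was looked up after their values had been seen. All 3 code for small secreted proteins known from stratified epithelium. In GRCm38 (GENCODE vM21) they lie one after another on the + strand of chromosome 7, Sbsn at chr7:30751471-30756134, Dmkn at chr7:30763756-30781063 and Krtdap at chr7:30787896-30791097, over 39627 bases. Sbsn held 119 UMIs in control and 259 in D-CAN members, against 2 and 4 in comparison cells. Dmkn held 68 and 146 against 5 and 0, and Krtdap 40 and 80 against 2 and 0. The nearest coding genes on either side, Gapdhs and Ffar2, had no UMI in members or comparison cells, and Tmem147, next after Gapdhs, held 24 and 28 UMIs in members and 10 and 14 in comparison cells. The high values thus stopped at the ends of the block of 3 genes. In endothelial, leukocyte (Ptprc present, no Pecam1, Cdh5 or Dcn) and mural cells (at least 2 UMIs of Rgs5 and Myh11, no Dcn) of both libraries Sbsn stayed at 11.5 CPM or less, beside 525 and 1145 CPM in members, and Dmkn and Krtdap summed to 2 UMIs.

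The start-site regions of these 3 genes are shown because the genes were high in the same cells. The windows hold 250 bases before and 30 after the RefSeq start site on the + strand of GRCm38.p6, at chr7:30751221-30751500 for Sbsn, chr7:30763506-30763785 for Dmkn (the first of its 3 listed starts) and chr7:30787655-30787934 for Krtdap. Capitals mark the letters TGANTCA, the form bound by AP-1, the dimer of FOS and JUN proteins. The letters read the same on both strands and were searched after the values had been seen.
Sbsn: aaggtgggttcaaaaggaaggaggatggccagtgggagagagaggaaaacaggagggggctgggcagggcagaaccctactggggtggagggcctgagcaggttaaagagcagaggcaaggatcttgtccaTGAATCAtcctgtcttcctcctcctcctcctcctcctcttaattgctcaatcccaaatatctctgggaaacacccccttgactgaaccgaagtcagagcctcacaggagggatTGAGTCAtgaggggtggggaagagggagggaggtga
Dmkn: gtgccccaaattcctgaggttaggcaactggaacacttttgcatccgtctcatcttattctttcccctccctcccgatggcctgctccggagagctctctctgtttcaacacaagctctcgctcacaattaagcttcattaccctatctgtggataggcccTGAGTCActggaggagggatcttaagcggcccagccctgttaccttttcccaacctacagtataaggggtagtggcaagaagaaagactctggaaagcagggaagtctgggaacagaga
Krtdap: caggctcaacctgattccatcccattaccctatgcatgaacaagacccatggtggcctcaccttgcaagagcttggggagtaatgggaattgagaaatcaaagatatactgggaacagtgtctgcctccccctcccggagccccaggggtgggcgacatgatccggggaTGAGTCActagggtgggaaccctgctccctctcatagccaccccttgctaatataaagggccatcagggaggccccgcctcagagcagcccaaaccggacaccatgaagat
Each window held the motif, with TGAGTCA starting 6 bases before the start site in Sbsn, 89 before it in Dmkn and 81 before it in Krtdap, and a further TGAATCA 119 bases before it in Sbsn. Both other start windows of Dmkn held TGAGTCA as well. Of 32851 mouse windows of the same length, 7.46% held TGANTCA. The letters TATAAA occurred in the Krtdap window alone, 30 bases before its start site, and in 13.1% of all windows. A match in letters describes the sequence only and shows neither binding nor a cause.

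The block split the deep members. Among the 29 D-CAN members with 2000 UMIs or more, 14 held all 3 genes, 3 held 1 or 2 of them and 12 held none, and among the 26 control members the counts were 5, 12 and 9. The 14 D-CAN cells with all 3 genes had a median of 42 Pi16 and Dpp4 UMIs and all lay in cluster 16. The 12 without had a median of 3.5 such UMIs, and 7 of them lay in cluster 13, although their median depth of 7978 UMIs was no lower than the 7408.5 of the 14. Claudin-3 (Cldn3), a tight junction protein of epithelia, was seen in 12 of the 14, in 2 of the 3 and in 1 of the 12. Over all members Cldn3 held 17 UMIs in 7 control cells and 33 UMIs in 16 D-CAN cells. Comparison, leukocyte and mural cells held none, and D-CAN endothelial cells held 1. The 7 other epithelial and tumor markers of the list (Epcam, Cdh1, Cldn7, Krt8, Krt18, Psca and Spink1) were at 0 in members of both libraries, whereas the keratin Krt19, of the mesothelial list, was seen as given above. In the control library depth differed between these classes, since the 5 members with all 3 genes had medians of 8065 UMIs and 40 Pi16 and Dpp4 UMIs, and the 9 without had 3599 and 4. Pi16 and Dpp4 are genes of the rule, so their levels are a description of the cells it took. Sbsn, Dmkn and Krtdap were not kept out of the clustering, and Sbsn and Dmkn were among the leading genes of cluster 16. The placement of these classes by cluster is thus not independent of the block.

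Genes of committed preadipocytes went the other way. Of 10 measured, 7 were at least 2-fold lower in members in both libraries, where 2.86% of all 2203 genes were, with medians of -2.38 and -3.31. Apoe, the lipid carrier apolipoprotein E, held 114 and 314 UMIs in members and 1342 and 1134 in comparison cells. Lipoprotein lipase (Lpl) held 116 and 86 UMIs in members and 234 and 678 in comparison cells. The basement membrane collagens Col4a1 (24 and 33 UMIs against 70 and 163) and Col4a2 (8 and 19 against 59 and 99), which share a promoter region, and the matricellular protein Sparcl1 (3 and 11 against 64 and 132) were lower in both libraries. Of the 12 genes farthest below, the membrane protein Tmem176b had the lowest ratios, with 1 and 0 UMIs in members against 61 and 54, and in the D-CAN library it was at least 26.4-fold lower. Inmt, Igfbp3, Col5a3 and A330069E16Rik were also among the 12, with log2 ratios of -3.75 to -2.07. No gene of the adipocyte list reached 20 UMIs.

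Matrix and growth factor genes divided within their families, and the shares over all 2203 genes were 5.45% at least 2-fold higher and 2.86% at least 2-fold lower. Of 7 genes of the IGF axis, the binding proteins Igfbp4, Igfbp5 and Igfbp6 were at least 2-fold higher in members in both libraries, whereas Igf1, Igfbp3 and Igfbp7 were at least 2-fold lower. Igfbp5 stood at 3488 and 3816 CPM against 1385 and 617, and Igf1 at 106 and 150 CPM against 319 and 532. Of 13 genes of elastic fibres, Eln, Mfap5, Fbln5 and Loxl1 passed 2-fold upwards and Lox downwards. Of 10 other collagens, Col4a1, Col4a2, Col6a3, Col15a1 and Col18a1 passed 2-fold downwards and none upwards. Of 9 metalloproteinase and inhibitor genes, the inhibitors Timp2 and Timp3, which restrain metalloproteinases, passed 2-fold upwards, and Mmp3 passed downwards.

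Cxcl12, Pdgfra and Pdgfrb, by which the study followed stromal cells, had lower summed levels in members than in the comparison cells. Cxcl12, a chemokine that draws CXCR4-bearing cells, stood at 326 and 411 CPM in members and at 1820 and 1674 CPM in comparison cells, with log2 ratios of -2.47 (-2.87 to -2.10) in control and -2.02 (-2.38 to -1.68) in D-CAN. Endothelial cells held Cxcl12 at 1621 and 1726 CPM. Of the 74 and 93 Cxcl12 UMIs in members, 46 and 72 lay in the 11 and 8 members of cluster 13. These stood at 1446 and 1187 CPM, and 7 and 6 of them held a single Pi16 or Dpp4 UMI. Members in cluster 16 stood at 112 and 134 CPM and those in cluster 10 at 196 and 0. The PDGF receptor gene Pdgfra stood at 300 and 283 CPM in members and at 515 and 831 in comparison cells, and Pdgfrb at 106 and 61.9 against 196 and 221. Neither receptor gene passed 2-fold in both libraries. In the control library Pdgfra was seen in 34 of 100 members and 30 of 83 comparison cells, and Pdgfrb in 17 and 16. In the D-CAN library Pdgfra was seen in 22 of 32 and 31 of 37, and Pdgfrb in 6 and 17. Thinned to 500 UMIs, control cells showed Pdgfra in 14 of 100 members and 16 of 83 comparison cells, and Pdgfrb in 3 and 4. D-CAN cells thinned in the same way showed Pdgfra in 4 of 32 members and 12 of 37 comparison cells, and Pdgfrb in 1 and 4. Cells with UMIs of Cxcl12, Pdgfra and Pdgfrb together were 5 of 100 control and 4 of 32 D-CAN members, against 8 of 83 and 11 of 37 comparison cells. Cxcl12 was seen in 30 of 100 control and 16 of 32 D-CAN members and in 39 of 83 and 26 of 37 comparison cells. After thinning to 500 UMIs, which left no cell out, it was seen in 18 and 5 of these members and in 27 and 14 of these comparison cells. Leukocytes, which should lack it, showed it in 1.62% and 0.297% at that depth and in 2.39% and 0.891% without thinning. The higher share in D-CAN members was thus not present at equal depth.

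The next question was how the remaining members differed after D-CAN. Of 3046 genes with at least 20 UMIs over the members of both libraries, 135 (4.43%) were at least 2-fold higher and 94 (3.09%) at least 2-fold lower in D-CAN, and the median log2 ratio was 0.00388. At 20 UMIs a ratio can pass 2-fold by counting error alone, so these counts do not say how many genes differed. Among 557 genes with at least 100 UMIs, 18 (3.23%) were higher and 3 (0.539%) lower. The genes of the rule differed little: Dcn stood at 13544 and 16468 CPM, with a log2 ratio of 0.28 (0.21 to 0.35), Pi16 at 0.01 (-0.14 to 0.15) and Dpp4 at 0.35 (-0.08 to 0.79). These values describe cells chosen for carrying them. Of 21 interstitial progenitor genes, 3 were at least 2-fold higher (Sbsn, Has1 and Uchl1) and none lower, with a median of -0.153. Sbsn and Dmkn had log2 ratios of 1.12 (0.81 to 1.45) and 1.10 (0.68 to 1.54), and Krtdap was at 0.99 (0.44 to 1.59).

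Immediate early genes, whose products are made within minutes of a stimulus or of cell handling, were higher in the D-CAN members. Of 17 in the list 16 were measured, and all 16 lay above 0. Fos, Fosb, Junb, Egr1, Ier3, Dusp1, Btg2 and Zfp36 were at least 2-fold higher, where 4.43% of all 3046 genes were, and the median was 1.03. Fos, the AP-1 subunit, held 142 UMIs in 40 of 100 control members and 463 in 25 of 32 D-CAN members, a log2 ratio of 1.71 (1.43 to 1.99). Junb, its partner, held 145 and 363 UMIs, with 1.32 (1.05 to 1.62). Fosb held 25 and 109 UMIs, with 2.11 (1.49 to 2.82). The list was also higher in other SAT cells of the same library, with medians of 0.459 in comparison, 0.512 in mural, 0.472 in endothelial and 0.211 in leukocyte cells. In members with 2000 UMIs or more the median was 0.850, with 14 of 16 genes above 0 and 7 at least 2-fold higher, where 5.98% of 2610 genes were. Of the heat shock list, Hspa1a (258 and 681 UMIs) and Hspa1b (127 and 314) were at least 2-fold higher and none of 10 lower, beside 4.43% and 3.09% of all genes, with a median of 0.241. The heat shock median was -0.599 in comparison cells, where 9 of 10 genes lay below 0, -0.0310 in mural, 0.179 in endothelial and -0.0346 in leukocyte cells. Both lists also respond to tissue dissociation, and its part in these differences was not tested.

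Of 17 interferon-stimulated genes 6 were measured. Isg15 (21 and 5 UMIs), Irf7 (25 and 9) and Bst2 (42 and 15) were at least 2-fold lower in D-CAN members, where 3.09% of all 3046 genes were, and the median of the 6 was -1.12. Ifi27l2a, the second most abundant of them, held 324 and 182 UMIs, with a log2 ratio of -0.83 (-1.10 to -0.56), whereas Ifitm3 held 502 and 497. The median was -2.10 in comparison, -1.96 in mural, -0.0491 in endothelial and -1.06 in leukocyte cells, so members did not stand alone. Leukocyte transcripts were more frequent in the control members, as given above, and their part in this was not tested. Among the 26 and 29 members with 2000 UMIs or more, where the general leukocyte genes summed to 1 and 3 UMIs, the median was -0.952 over 5 genes.

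**Figure D4:**
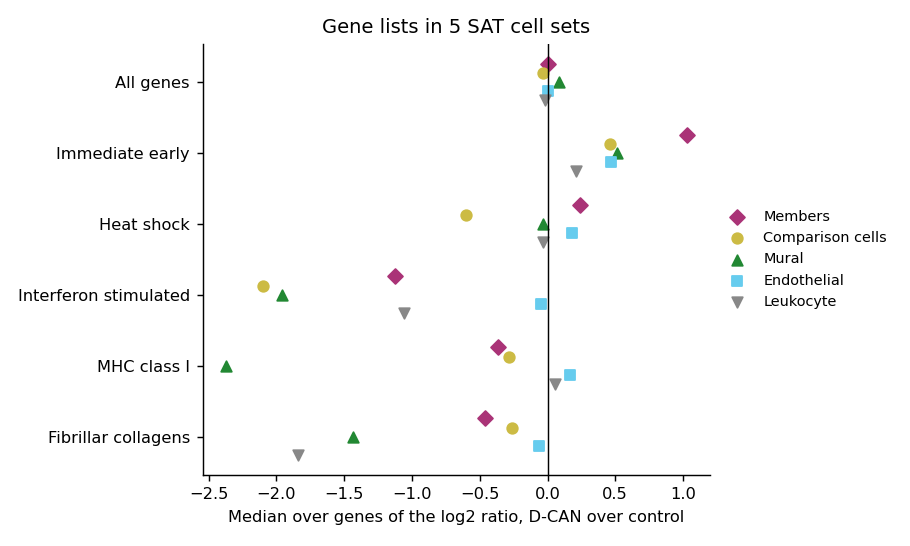
Median over genes of the log2 ratio of D-CAN over control for 5 gene lists and for all genes with at least 20 UMIs, in members (diamonds), comparison cells (circles), mural (upward triangles), endothelial (squares) and leukocyte (downward triangles) cells of SAT. The immediate early list lies above 0 in every cell set and highest in members at 1.03, and the interferon-stimulated list lies below 0 in every cell set.

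Among the genes with at least 100 UMIs a secreted signal differed most. Cxcl13, a chemokine that attracts B cells, had 21 UMIs in 9 of 100 control members and 212 in 17 of 32 D-CAN members, a ratio of 9.91 (log2 3.31, 2.69 to 4.06). The cell with most of them held 55, and without that cell the log2 ratio was 2.93. Comparison cells held 16 UMIs in 4 of 83 control cells and 742 in 8 of 37 D-CAN cells. Leukocytes held 2 UMIs in 2 of 1047 control cells and 174 in 4 of 1010 D-CAN cells. Ccl2, a chemokine for monocytes, held 6 and 36 UMIs and the eosinophil chemokine Ccl11 49 and 110, whereas Ccl8 held 29 and 8. Socs3, an inhibitor of cytokine signaling, held 29 and 95 UMIs, and Tgfbi, a TGF-beta-induced matrix protein, 24 and 85. Of the 85 Tgfbi UMIs, 30 lay in a single cell.

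Postn, which codes for the matricellular protein periostin, held 87 UMIs in 19 control members and 13 in 2 D-CAN members, a log2 ratio of -2.69 (-3.70 to -1.89). It was lower in comparison cells too (70 and 27 UMIs), and higher in mural cells (23 and 115). Of 6 fibrillar collagen genes, 1 was at least 2-fold lower (Col5a3, 27 and 10 UMIs) and none higher, beside 3.09% and 4.43% of all genes, with a median of -0.458. Col3a1 fell short of 2-fold at 2310 and 1328 UMIs, with a log2 ratio of -0.79 (-0.89 to -0.70), and Col1a1 held 949 and 954, both genes of the rule. Timp1 held 26 and 4 UMIs. Maf, a bZIP transcription factor, held 81 and 40 UMIs and was the third gene with at least 100 UMIs that was 2-fold lower, beside Postn and Cxcl14. Ndufa4, Sfrp4, Ace, Gas1, Actb, Ifi27l2a and Ly6e completed the 10 lowest, with log2 ratios of -0.97 to -0.83, all short of 2-fold, and that of Sfrp4 was 0.74 after thinning to 500 UMIs. Actb, beta-actin, held 763 and 414 UMIs over all members, but in members with 2000 UMIs or more it was at 2266 and 1760 CPM, a log2 ratio of -0.36 (-0.57 to -0.15).

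Several of the higher genes rested on few cells. Mgp (matrix Gla protein) held 50 and 215 UMIs, but in the D-CAN library only 4 cells held it, and 1 of them held 134. F3 held 33 and 119 UMIs, of which single cells held 27 and 74, and Apoe 114 and 314, of which the same 2 cells held 53 and 164. The D-CAN one of them was also the cell with 30 Tgfbi UMIs. Both cells lay in cluster 13. When members were limited to the 68 control and 25 D-CAN cells with at least 2 Pi16 or Dpp4 UMIs, the log2 ratios of Mgp, F3 and Apoe were -0.55, -0.23 and -0.29, on the other side of 0, and that of Tgfbi was 0.86 (0.04 to 1.75), short of 2-fold. The CD142-positive list, with a median of 1.84 over 5 genes in all members, contains Mgp and F3. Cxcl14, at 70 and 31 UMIs, had 46 of its control UMIs in 1 cell, and without that cell its log2 ratio was 0.27. Under the stricter rule, which kept that cell, Cxcl14 held 65 and 2 UMIs, a log2 ratio of -4.64 (-8.03 to -3.04). Fos, Fosb, Junb, Hspa1a, Socs3, Cxcl13 and Postn kept their direction without the top cell and under the stricter rule, with Fos at 1.69 and Postn at -2.41 under the latter.

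**Figure D5:**
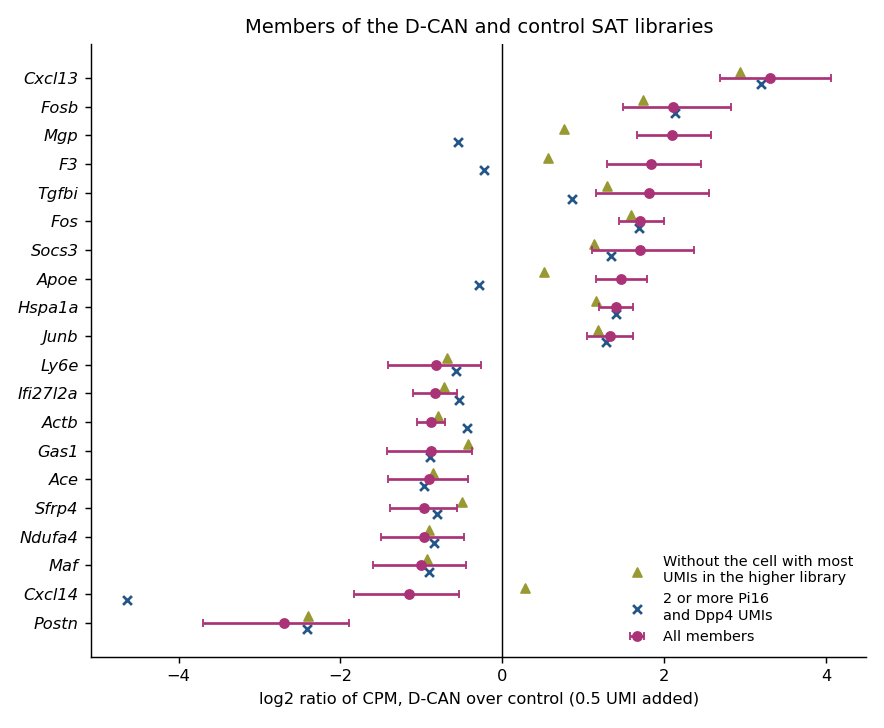
Log2 ratio of CPM, D-CAN over control, for the 10 highest and 10 lowest genes with at least 100 UMIs in members (circles, exact 95% intervals), the same without the cell holding most UMIs of the gene in the higher library (triangles), and in members with 2 or more Pi16 or Dpp4 UMIs (crosses). Mgp, F3 and Apoe cross 0 under the stricter rule and Cxcl14 crosses it without its top cell.

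In the unfolded protein response list 2 of 13 genes were at least 2-fold higher, Atf4 (19 and 47 UMIs) and Ddit3 (9 and 21), beside 4.43% of all genes, with a median of 0.261. In the IGF, complement, elastic fibre, small proteoglycan, PDGF and class I antigen presentation lists no gene passed 2-fold in either direction. The apoptosis list, of interest for a treatment meant to kill ASC, had 4 of 16 genes with enough UMIs, none of them past 2-fold, and a median of -0.534. Proliferation genes held few UMIs, 117 and 53 over 18 genes. Of 2 measured, 1 was at least 2-fold lower and 0 higher, beside 3.09% and 4.43% of all genes, with a median of -1.38. In comparison cells they held 338 and 39 UMIs, with a median of -4.43. All 4 measured there were at least 2-fold lower, beside 204 of all 2045 genes in comparison cells. Of the 83 control comparison cells 21 lay in cluster 18, which held no D-CAN cell, and the part of this was not tested.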

How the data were processed

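Stromal/vascular cells of SAT, and cancer and stromal/vascular cells of tumors, were profiled with 10x Genomics 3′ chemistry in 4 libraries. The authors deposited raw UMI counts per gene and cell, made per the labels with Cell Ranger 3.1.0 and STAR 2.6 on mm10. Cells with at least 200 detected genes were kept (2841 of 2851 in SAT control, 1897 of 1922 in SAT D-CAN), with totals of 6667064 and 7444729 deposited UMIs. The members and gene lists were chosen with earlier results of these data known. No doublet caller was run, and the rule leaves out cells with endothelial or leukocyte UMIs. UMIs were summed over the cells of a library and given as counts per 1000000 of that sum (CPM). Log2 ratios have 0.5 UMI added to each sum, and 3 UMIs served as the floor of a cell group at 0. Intervals are exact (Clopper-Pearson for shares, conditional binomial for ratios) and cover counting error only. With 1 library per group there was no test, and 2-fold was the threshold.

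Named for D-CAN over control were the 10 highest and 10 lowest genes that reached 100 UMIs in the members of both libraries together. Named for members over comparison cells were the 12 farthest on each side in both libraries with at least 50 UMIs in each, of which 1 gene is not reported here. Lists used genes with at least 20 UMIs. Cells were clustered with Seurat 5.3.0 in R 4.3.3 with 10 components and a resolution of 0.8. Kept out of the 2000 variable genes were those of the rule and Cxcl12, Pdgfra, Pdgfrb, Acta2, Fn1, Vim, Mki67, F3, Icam1 and Igfbp6. This left 1982 genes. Other steps used Python 3.11.15, numpy 2.4.6, scipy 1.17.1 and pandas 2.3.3, and the ratios were tested on simulated data. Alternatives covered thinning, filters, denominators, scaling, weighting, the rule and clustering settings, and the split at 2000 UMIs was added after the data were seen. Coordinates are from GENCODE vM21 and start-site windows from RefSeq, both on GRCm38.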

Additional observations from a re-analysis of the deposited data

Results flagged for a closer look

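The share of cells that met the rule differed in opposite directions in the 2 tissues. In SAT it was lower in the D-CAN than in the control library by -1.83 percentage points. In the tumor libraries 30 of 2761 cells in control (1.09%, 0.734 to 1.55) and 25 of 1487 in D-CAN (1.68%, 1.09 to 2.47) met the rule. The difference was 0.595 percentage points in the other direction, with intervals that overlap. The tumor cells that met the rule had median depths of 4176 and 6897 UMIs. With every tumor cell thinned to 500 UMIs, 7 control cells (0.254%) and 6 D-CAN cells (0.403%) met it. With 1 library per tissue and treatment, the difference between the tissues was not tested. Among cells with 2000 UMIs or more the tumor shares were 1.29% (0.830 to 1.92) and 2.07% (1.33 to 3.06).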

How the results depend on the processing

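No paired analysis was possible because each tissue and treatment had 1 library, and no replicate could be left out. The log2 ratio of the share of members, D-CAN over control, was -1.06 as reported. It was -1.76 with a second random seed of thinning to 500 UMIs, -0.115 among cells without Ptprc, Cd79a and Cd3e, -0.0942 among cells meeting the Dcn, collagen and exclusion conditions and -0.167 for Dpp4 alone. Within the stromal conditions at equal depth, added after the data were seen, it was -0.412 at 500 and -0.222 at 1000 UMIs per cell. By depth, also added after the data were seen, it was -2.61 under 2000 UMIs and -0.181 at 2000 or more, and among those deeper cells -0.158 within the stromal conditions and 0.168 without the leukocyte genes, a reversal. The counts of genes at least 2-fold higher and lower in D-CAN, 135 and 94, were 39 and 12 with at least 50 UMIs, 320 and 204 with equal weight for each cell, and 22 and 21 after thinning to 500 UMIs. Those for members over comparison cells, 63 and 25, were 29 and 11 with at least 100 UMIs and 13 and 9 after thinning. The cluster with most members held 52.3% of them, against 95.5% at a resolution of 0.4 and 69.7% with 20 components. Mgp, F3 and Apoe reversed to -0.55, -0.23 and -0.29 with at least 2 Pi16 or Dpp4 UMIs, Sfrp4 to 0.74 after thinning, and Cxcl14 to 0.27 without its top cell, an alternative added after the data were seen. Fewer genes were tested under higher minimums and after thinning, and the cause of the other changes was not tested. Over the alternatives run, 205 of 210 values of genes named for D-CAN over control and 384 of 384 for members over comparison cells kept their direction. These genes were named for the farthest ratios in the same cells, so a kept direction is not independent support. The 32 D-CAN members, and the 1000 UMIs of the median control member, limit the precision of every value.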
